A study of Mus musculus with 12 samples.

Results

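Smooth muscle cells of the mouse aorta, which contract to set vessel tone, were compared after an αKlotho lentivirus and after an empty lentiviral vector, both in calcification medium. The comparison takes 6 of the 12 RNA-seq libraries of the series: the 3 libraries labelled αKlotho lentivirus and the 3 labelled empty vector. Every gene with a mean of at least 1 FPKM over these 6 libraries was tested, which left 10688 of the 25745 genes in the deposited table. FPKM is a fragment number divided by gene length and by library size.

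The Klotho group held primary aortic smooth muscle cells of wild-type C57BL/6J mice aged 5 to 6 weeks, infected with the αKlotho lentivirus and kept for 7 days in medium with 3.0 mM sodium phosphate. The vector group held the same kind of cells with an empty lentivirus and the same medium. Both groups therefore carry a lentivirus and a high phosphate load. The cells had grown out of aortic pieces stripped of adventitia and endothelium and were used between passages 5 and 8. The species, promoter and form of the αKlotho insert are not given in the labels. The labels do not tell if replicates are separate mice or cultures, so the p-values measure the spread between these libraries, which may be technical. The other 6 libraries of the series, 3 in calcification medium alone and 3 in basal medium, entered the fit only to estimate the spread.

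αKlotho is a membrane protein, made mainly in the kidney, that serves as the co-receptor of the phosphate-regulating hormone FGF23, and its ectodomain is shed into the circulation. Mice without it develop calcified arteries. The study's title concerns the binding of soluble αKlotho to the chaperone Hsp90aa1 and the stability of the hypoxia-inducible factor Hif1a. HIF-1α is regulated largely at the protein level: prolyl hydroxylases of the Egln family mark it for destruction through the von Hippel-Lindau protein, and the HSP90 machine protects it. Levels of mRNA do not measure that stability, but the transcripts of HIF targets are in the table.

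The gene that the virus was meant to supply was not detected. Kl was listed at 0, 0 and 0.00536 FPKM in the libraries labelled Klotho, the last being 1 fragment, and at 0 in all 3 vector libraries. It was also 0 in the other 6 libraries. A total of 3 fragments would have given at most 0.0193 FPKM in any library, so transcripts matching the mouse Kl gene were below that level. Whether an insert of another sequence was present was not tested. Klb, the related co-receptor β-Klotho, had no fragment in the Klotho-labelled libraries, against 2, 2 and 1 fragments in the vector libraries. Every direction below is drawn by the labels alone, since the Kl transcript does not separate the libraries.

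No gene passed an adjusted p of 0.05 between the libraries labelled Klotho and the vector libraries (limma on log2(FPKM + 1), Benjamini-Hochberg over 10688 genes), which is 0% called. The smallest adjusted p was 0.165. At an unadjusted p under 0.05 there were 1513 genes (14.2%), of which 837 were higher (7.83%) and 676 lower (6.32%) in the Klotho-labelled libraries. The count was 923 without Klotho replicate 2 and 995 without Klotho replicate 1. The 3 values of a group lay wholly above or wholly below the 3 of the other for 2314 genes (21.7%), 1194 of them higher (11.2%) and 1120 lower (10.5%) in the Klotho-labelled libraries. That number was 4181 without Klotho replicate 3 and 3781 without vector replicate 3, where fewer libraries must stand apart. No value below is therefore a called change in this fit, and the genes are described by their levels. Alternative fits are given at the end.

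On the first principal component of the 6 libraries, which held 33.9% of the variance, the Klotho-labelled libraries scored 14.1, 24.9 and 1.72, against -26.3, -6.41 and -8.09 in the vector libraries. The labels do not overlap on it, and Klotho replicate 3 lay nearest to 0. The second component held almost as much, 33.7%, and set Klotho replicate 1 apart at 32.0, while the others lay between -16.1 and 8.19. Depth, recovered from the values, ran between 17395000 and 20015000 fragments in these 6 libraries.

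Across genes, the difference between the labels followed gene length and base composition. Long genes poor in G and C read higher in the Klotho-labelled libraries, and short genes rich in G and C read lower. Over 10664 genes with a known exon length and GC content, Spearman's rho between the log2 fold change and GC content was -0.55, and with exon length it was 0.46. Genes share libraries and are not independent replicates, so these are descriptions with no p. GC content and length themselves were correlated at a rho of only -0.25.

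With the genes ordered by GC content and cut into 10 bins, the lowest bin, between 31.0% and 42.0%, had a median log2 fold change of 0.27. There, 421 genes lay wholly above and 7 wholly below the vector libraries. In the highest bin, between 58.0% and 75.5%, the median was -0.22, with 1 gene wholly above and 280 wholly below. Ordered by length, the bin of the shortest genes, with exons of 100 to 1234 bases in all, had a median of -0.20. The bin of the longest, of 9210 to 41155 bases, had a median of 0.22. Among genes both under 2941 bases and above 53.3% GC, 26.0% lay wholly below and 0.316% wholly above. Among genes both over 5458 bases and below 47.1% GC, 36.8% lay wholly above and 1.49% wholly below. Over all tested genes these shares are 11.2% above and 10.5% below.

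The genes with the clearest differences followed the same order. Those with groups apart, an unadjusted p under 0.05 and at least 5 FPKM in the higher group numbered 897. The 417 that were higher in the Klotho-labelled libraries had a median exon length of 5995 bases and a median GC content of 43.3%. The 480 that were lower had medians of 2279 bases and 55.5%, and all tested genes 4086 bases and 50.2%.

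**Figure D1:**
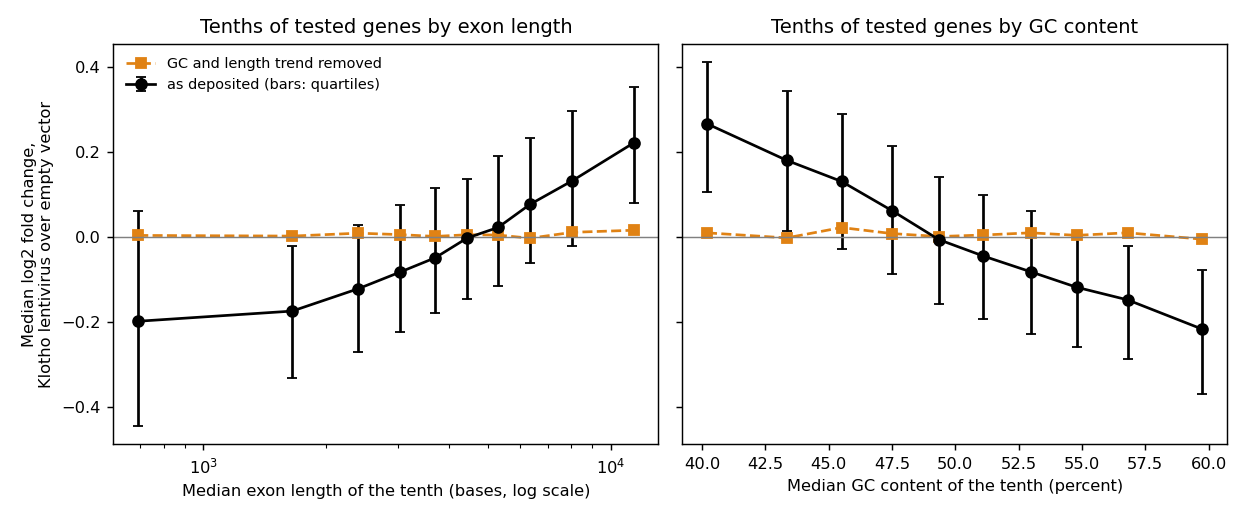
Median log2 fold change, libraries labelled Klotho over empty vector, in 10 equal bins of the tested genes ordered by exon length (left) and by GC content (right); bars are quartiles, squares the medians after each library's trend was removed. The medians run between -0.20 and 0.22 along length and between 0.27 and -0.22 along GC content, and stay near 0 after removal.

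A pair of transcripts shows the contrast. The sequences below are the first coding bases of Tmem106b, a lysosomal membrane protein gene on chromosome 6 whose transcript holds 38.5% G and C, and of Ier2, an immediate early gene on chromosome 8 whose transcript holds 60.9%; capitals mark G and C, and the sequences are from GENCODE M21 (GRCm38), read 5′ to 3′ on the coding strand.
Tmem106b: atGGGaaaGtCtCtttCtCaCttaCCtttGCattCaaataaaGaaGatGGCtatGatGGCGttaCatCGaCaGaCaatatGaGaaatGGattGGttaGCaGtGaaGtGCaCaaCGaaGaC
Ier2: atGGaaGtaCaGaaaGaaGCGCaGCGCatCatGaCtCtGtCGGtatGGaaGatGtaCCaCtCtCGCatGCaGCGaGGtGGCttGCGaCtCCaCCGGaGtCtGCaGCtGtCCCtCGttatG
In these stretches of 120 bases, 48 were G or C in Tmem106b and 66 in Ier2. Tmem106b measured 58.8, 57.0 and 46.2 FPKM in the Klotho-labelled libraries, against 30.8, 33.6 and 27.5 FPKM in the vector libraries. Ier2 measured 14.4, 13.5 and 14.6 FPKM in the Klotho-labelled libraries, against 32.8, 33.0 and 25.5 FPKM in the vector libraries. Neither gene's groups overlap, and the genes lie on opposite sides. The log2 fold changes were 0.80 ± 0.15 for Tmem106b and -1.04 ± 0.16 for Ier2 (SE, limma adjusted p 0.169 and 0.165). After the trend with GC content and length was removed they were 0.47 and -0.73. With the replicate number as a block the limma adjusted p was 0.0467 for both genes. With the block and the trend removed, 0 genes were called.

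The trend differed between single libraries and was strongest in the vector group. Set against the mean of all 12 libraries, rho with GC content was -0.37, -0.14 and 0.05 in the Klotho-labelled libraries, against 0.44, 0.29 and 0.40 in the vector libraries. It was -0.13, -0.12 and 0.27 in calcification medium alone, and -0.05, -0.27 and -0.33 in basal medium. With exon length, rho was 0.22, 0.09 and -0.32 in the Klotho-labelled libraries, against -0.43, -0.52 and -0.28 in the vector libraries. So the 3 vector libraries lay on the GC-rich, short side in both measures, and so did Klotho replicate 3 and calcification replicate 3. Between replicates 2 and 3 alone, rho of the fold change was weaker, -0.37 with GC content and 0.32 with length. Genes shorter than 1000 bases held 12.2%, 12.1% and 13.7% of all FPKM in the Klotho-labelled libraries, against 15.2%, 13.5% and 12.7% in the vector libraries, which overlap. Values with the trend removed are given beside most groups of genes.

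**Figure D2:**
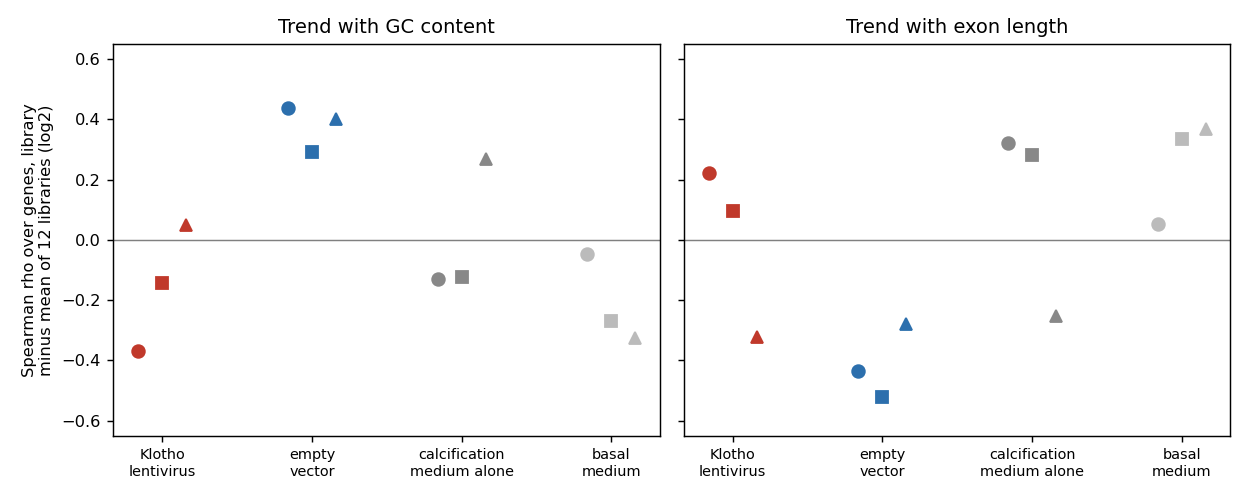
Spearman's rho over genes between a library's log2 deviation from the mean of 12 libraries and GC content (left) or exon length (right), by group; circle, square and triangle are replicates 1, 2 and 3. The vector libraries lie between 0.29 and 0.44 for GC content and between -0.52 and -0.28 for length, while the Klotho-labelled libraries lie between -0.37 and 0.05 and between -0.32 and 0.22.

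With the trend removed, 0 genes were called and 1569 of 10664 genes did not overlap between the groups (14.7%), 706 of them higher (6.62%) and 863 lower (8.09%) in the Klotho-labelled libraries.

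The genes of the mitochondrial genome formed the group that stood highest in the Klotho-labelled libraries. This small circle encodes 13 proteins, all subunits of the respiratory chain or the ATP synthase. Of the 12 that passed the filter, 12 had a positive fold change, against 48.4% of all genes tested, and 10 lay wholly above the vector libraries, against 11.2% of all genes. Their median log2 fold change was 0.71, beside -0.01 for all genes tested. After removal of the trend the median was 0.59 and 8 lay wholly above, where 6.62% of all genes did. The median was 0.45 without vector replicate 3.

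mt-Nd5, a subunit of complex I, measured 473, 430 and 371 FPKM in the Klotho-labelled libraries, against 251, 249 and 233 FPKM in the vector libraries. Its log2 fold change was 0.79 ± 0.15 (SE, limma adjusted p 0.169). mt-Nd2, also of complex I, measured 684, 842 and 730 FPKM in the Klotho-labelled libraries, against 513, 475 and 252 FPKM in the vector libraries. Vector replicate 3 was the lowest library for both genes. mt-Co1, the catalytic subunit of cytochrome oxidase, measured 4029, 3617 and 3264 FPKM in the Klotho-labelled libraries, against 2688, 2234 and 1857 FPKM in the vector libraries. mt-Cytb, of complex III, measured 997, 1016 and 880 FPKM in the Klotho-labelled libraries, against 669, 707 and 417 FPKM in the vector libraries. The groups do not overlap for either gene. mt-Nd1, mt-Nd3, mt-Nd4, mt-Nd4l, mt-Nd6 and mt-Atp6 also lay wholly above, with log2 fold changes between 0.29 for mt-Nd6 and 0.88 for mt-Atp6.

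The exceptions were mt-Co2, at 28.0, 20.2 and 27.6 FPKM in the Klotho-labelled libraries against 27.7, 27.9 and 17.2 FPKM in the vector libraries, and mt-Co3, whose groups also overlap. mt-Co2 turned to -0.0031 when the trend was removed. mt-Co2, mt-Co3, mt-Nd3 and mt-Nd4l read far lower than mt-Co1. mt-Nd3, for example, measured 2.45, 2.35 and 2.30 FPKM in the Klotho-labelled libraries, against 1.49, 1.65 and 0.978 FPKM in the vector libraries. Among the mitochondrial genes, sequence shared with other genes was sought only for mt-Nd2 and mt-Atp6, so the levels of the others are uncertain. Over 510 aligned bases, mt-Nd2 is 96.7% identical to Gm13339, so its level is uncertain too. mt-Atp8 was below the filter, at 0, 0.534 and 0.735 FPKM in the Klotho-labelled libraries against 1.13, 0.281 and 0 FPKM in the vector libraries. The share of all FPKM held by mitochondrial genes was 2.88%, 3.28% and 2.92% in the Klotho-labelled libraries, against 2.05%, 1.89% and 1.53% in the vector libraries. It lay between 2.13% and 2.61% in calcification medium alone and between 2.21% and 3.00% in basal medium. So the vector libraries were the lowest of the 12 in this share, and 2 of the 3 Klotho-labelled libraries lay within the range of basal medium.

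The gene with the largest positive difference was Gm10925, on chromosome 1 at 24653055 to 24653732 as the table gives it, with no build stated. It measured 20.7, 25.4 and 23.9 FPKM in the Klotho-labelled libraries, against 12.2, 12.3 and 7.36 FPKM in the vector libraries, a log2 fold change of 1.09 ± 0.22 (SE, limma adjusted p 0.172). Its 678 bases are identical in full to the first 678 of the 681 bases of mt-Atp6, a subunit of the ATP synthase. The first 120 bases, shown because they let no read tell the nuclear copy from the mitochondrial gene, are the following in GENCODE M21 (GRCm38).
Gm10925: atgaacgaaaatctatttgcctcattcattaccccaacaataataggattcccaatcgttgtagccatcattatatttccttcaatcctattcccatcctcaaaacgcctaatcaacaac
mt-Atp6: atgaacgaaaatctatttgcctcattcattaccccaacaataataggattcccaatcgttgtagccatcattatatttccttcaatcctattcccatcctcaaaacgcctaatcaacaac
mt-Atp6 measured 18.7, 19.1 and 18.5 FPKM in the Klotho-labelled libraries, against 11.2, 12.1 and 6.83 FPKM in the vector libraries. The level of either gene alone is uncertain, since the labels do not state how shared reads were assigned, and both entries stand for the same sequence.

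Among the other genes with the largest positive differences, Hipk2, a kinase of the stress response, measured 27.9, 19.5 and 16.4 FPKM in the Klotho-labelled libraries, against 11.1, 4.92 and 14.9 FPKM in the vector libraries. Cpne3, a calcium-dependent membrane-binding protein, measured 12.5, 11.5 and 10.3 FPKM in the Klotho-labelled libraries, against 5.35, 5.55 and 6.89 FPKM in the vector libraries. Crebrf, a regulator of the CREB3 transcription factor, measured 5.83, 5.85 and 4.76 FPKM in the Klotho-labelled libraries, against 3.28, 2.39 and 2.33 FPKM in the vector libraries. In each of these genes every Klotho-labelled library lay above every vector library. Ifit2, an interferon-induced gene, measured 9.25, 6.80 and 9.41 FPKM in the Klotho-labelled libraries, against 3.44, 4.79 and 3.84 FPKM in the vector libraries. Ccdc152 and Cped1 completed the set, at log2 fold changes of 0.92 and 0.90; a stretch of 439 bases of Ccdc152 is identical to Selenop, so its level is uncertain.

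In calcification medium without a vector, the genes differed in where they lay. Cpne3 measured at least 9.27 FPKM in every library of calcification medium alone, above all 3 vector libraries. Tmem106b measured 49.9, 44.8 and 40.1 FPKM there, again above all 3 vector libraries. mt-Nd5 measured 339, 390 and 356 FPKM there, between the groups except for 1 library inside the Klotho-labelled range. mt-Nd1 measured 746, 910 and 1006 FPKM there, within the range of the vector libraries.

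**Figure D3:**
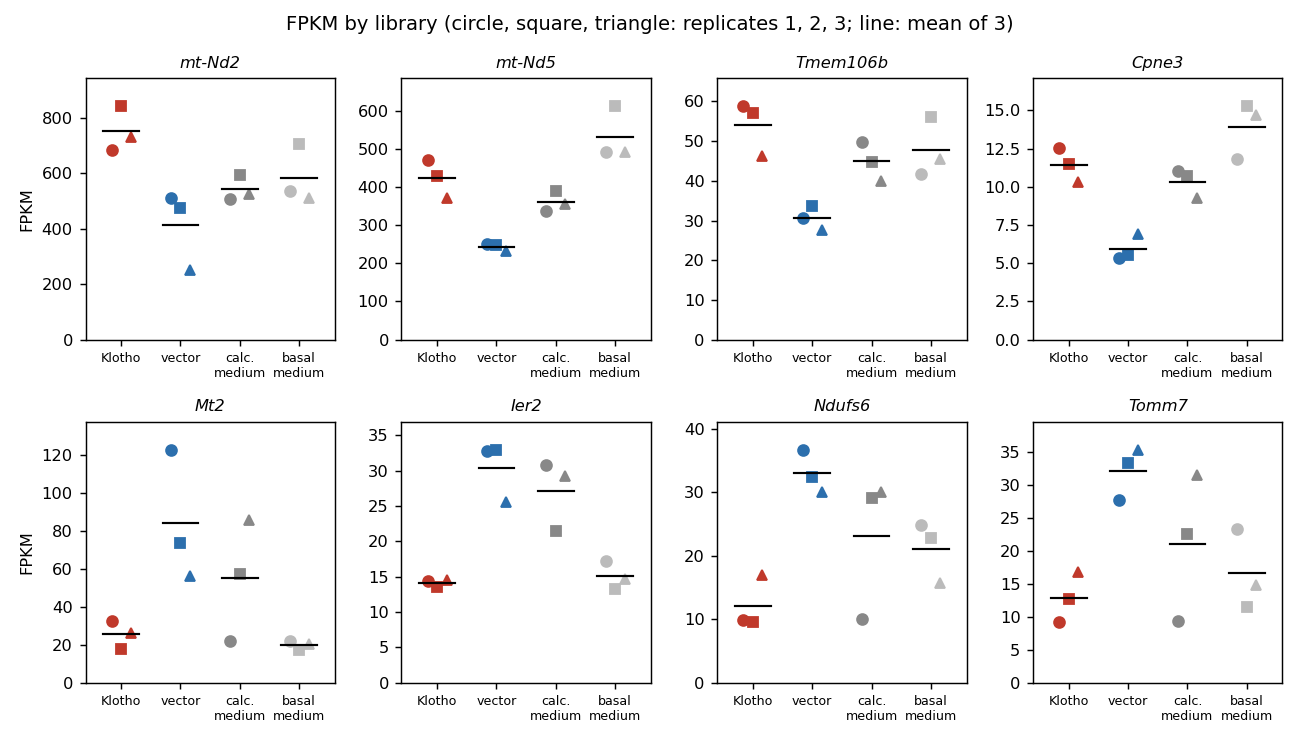
FPKM of 8 genes in every library; circle, square and triangle are replicates 1, 2 and 3, the line is the mean of 3, and the groups from left to right are Klotho-labelled, vector, calcification medium alone and basal medium. The Klotho-labelled libraries lie above the vector libraries in the upper row and below them in the lower row, for example at 9.23 to 16.8 FPKM against 27.7 to 35.4 FPKM for Tomm7.

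Several of the genes with the largest negative differences were short, and some share sequence with other genes. mmu-mir-692-2, a microRNA gene on chromosome 4, measured 1.56, 0 and 1.38 FPKM in the Klotho-labelled libraries, against 10.0, 4.74 and 8.33 FPKM in the vector libraries, a log2 fold change of -2.20 ± 0.59 (SE, limma adjusted p 0.218). RefSeq's Mir692-2 hairpin, matched by name, lies at chr4:125504749-125504857 (+) in GRCm38.p6; the capitals in the hairpin mark the mature part, and those in the mature miR-692 mark the seed, bases 2 to 8.
Mir692-2: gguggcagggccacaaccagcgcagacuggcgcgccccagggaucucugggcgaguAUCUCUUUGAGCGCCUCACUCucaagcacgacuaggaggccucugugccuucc
mmu-miR-692: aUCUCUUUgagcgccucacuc
All 109 bases of the hairpin are also found in Ftl1-ps1, a pseudogene of the ferritin light chain, and 106 of the 109 in Ftl1 itself, so fragments counted here need not come from a microRNA. At this length such values rest on few fragments, whose number was not recovered for mmu-mir-692-2. Ftl1, an iron-storage protein, measured 1389, 2701 and 2434 FPKM in the Klotho-labelled libraries, against 2838, 3157 and 2169 FPKM in the vector libraries, which overlap.

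Gm10076, 99.5% identical to Rpl41, measured 24.5, 19.6 and 27.6 FPKM in the Klotho-labelled libraries, against 130, 144 and 46.5 FPKM in the vector libraries. Gm14303, identical in all 171 bases to Rps29, had a log2 fold change of -1.43 ± 0.60 (SE). Rpl41 and Rps29, the ribosomal protein genes themselves, had log2 fold changes of -0.50 and -0.48. The groups stood apart for Rps29 and overlapped for Rpl41. A gene on an unplaced scaffold, ENSMUSG00000095742, measured 154, 259 and 258 FPKM in the Klotho-labelled libraries, against 712, 615 and 500 FPKM in the vector libraries, and ENSMUSG00002075486, on chromosome 17, also lay wholly below. Neither carries a name in the table. ENSMUSG00002075486 is about as short as the Mir692-2 hairpin, so its values rest on few fragments as well.

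Among the named protein genes of this end, Ndufs6, an accessory subunit of complex I, measured 9.86, 9.53 and 17.0 FPKM in the Klotho-labelled libraries, against 36.7, 32.5 and 30.1 FPKM in the vector libraries. Tomm7, of the outer mitochondrial membrane's import pore, measured 9.23, 12.7 and 16.8 FPKM in the Klotho-labelled libraries, against 27.7, 33.3 and 35.4 FPKM in the vector libraries. The groups stand apart in both, as they do after removal of the trend, with log2 fold changes of -1.26 and -1.27. Calcification replicate 1, however, was as low as the Klotho-labelled libraries, at 10.1 FPKM for Ndufs6 and 9.39 FPKM for Tomm7. Calcification replicates 2 and 3 were higher, at 29.1 and 30.1 FPKM for Ndufs6 and 22.5 and 31.5 FPKM for Tomm7. Ndufs6 shares 95.8% of 287 aligned bases with Ndufs6b. Abhd11os, a noncoding gene, measured 2.35, 4.28 and 4.35 FPKM in the Klotho-labelled libraries, against 10.6, 11.3 and 9.87 FPKM in the vector libraries.

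Mt2, a metallothionein that binds zinc and copper and responds to metals, glucocorticoids and oxidants, measured 32.7, 17.7 and 26.2 FPKM in the Klotho-labelled libraries, against 123, 73.7 and 56.1 FPKM in the vector libraries. All 3 Klotho-labelled libraries lay below the lowest vector library. The log2 fold change was -1.65 ± 0.42 (SE, limma adjusted p 0.217), and -1.35 after removal of the trend. Calcification medium alone gave 21.8, 57.4 and 85.4 FPKM, spanning both groups, and basal medium 17.3 to 21.9 FPKM. The promoter of Mt2 is shown because metal response elements, bound by the zinc-sensing factor MTF1, are the textbook control of this gene. RefSeq places it at chr8:94172368-94172667 (+) in GRCm38.p6, with 250 bases before and 50 from the start site on, and capitals mark TGCACNC or TGCGCNC on either strand.
Mt2: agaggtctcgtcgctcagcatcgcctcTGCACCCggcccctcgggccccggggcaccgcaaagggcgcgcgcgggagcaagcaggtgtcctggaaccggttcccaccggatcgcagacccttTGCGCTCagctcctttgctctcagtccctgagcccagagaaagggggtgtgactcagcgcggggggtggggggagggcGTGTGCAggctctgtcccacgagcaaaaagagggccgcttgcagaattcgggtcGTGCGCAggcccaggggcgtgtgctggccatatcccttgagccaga
It holds 4 such matches, and 25.7% of 32851 promoters of this length hold at least 1. A match is a description of the letters, not a measured site. An antisense gene, Gm45774, overlaps Mt2 over 212 bases, and the labels do not state strand handling, so the level of Mt2 may include it.

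In the wider list of 27 antioxidant and NRF2 target genes, 22 had a negative fold change, against 51.6% of all genes. With Mt2 among them, 4 lay wholly below and 1 wholly above, shares near the 10.5% and 11.2% of all genes or under them. The median was -0.13, or -0.22 without vector replicate 3, -0.20 without Klotho replicate 3 and -0.08 without Klotho replicate 1. It was -0.07, with 17 negative, after removal of the trend. Then 5 lay wholly below and 0 wholly above, where 8.09% and 6.62% of all genes did. Srxn1, sulfiredoxin, measured 26.5, 27.0 and 30.4 FPKM in the Klotho-labelled libraries, against 43.1, 32.7 and 38.0 FPKM in the vector libraries. Txn1, thioredoxin, lay wholly below with a log2 fold change of -0.35. As deposited, Prdx1, a peroxiredoxin, was the 1 gene wholly above, at 0.21.

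Immediate early genes, which are transcribed within minutes of a stimulus without new protein synthesis, had the lowest median of the lists with at least 5 tested members as deposited, -0.45. Of 19 tested, 16 had a negative fold change, 8 of them at an unadjusted p under 0.05, against 6.32% of all genes, and 7 lay wholly below, against 10.5%. With the trend removed the median was -0.20 and 5 lay wholly below, where 8.09% of all genes did. Junb, an AP-1 subunit, measured 38.8, 23.6 and 42.7 FPKM in the Klotho-labelled libraries, against 64.3, 66.1 and 64.8 FPKM in the vector libraries. Jund, another AP-1 subunit, measured 46.4, 49.0 and 58.2 FPKM in the Klotho-labelled libraries, against 76.2, 76.5 and 71.3 FPKM in the vector libraries. Egr1, a zinc-finger transcription factor, measured 5.33, 3.21 and 3.21 FPKM in the Klotho-labelled libraries, against 8.22, 6.08 and 7.15 FPKM in the vector libraries. No library crosses over in these genes. Fos overlapped, at 53.8, 38.4 and 34.8 FPKM in the Klotho-labelled libraries against 39.2, 57.5 and 53.6 FPKM in the vector libraries. Klf6 was the only member wholly above, where 11.2% of all genes did. Calcification medium alone gave 19.2, 7.57 and 7.07 FPKM for Egr1, all above the Klotho-labelled libraries. So it did for Ier2, at 30.9, 21.5 and 29.2 FPKM. For Jund it gave 51.3, 62.9 and 63.6 FPKM, with calcification replicate 1 inside the Klotho-labelled range and the others between the groups.

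Zfp36, which encodes the mRNA-destabilising protein tristetraprolin, measured 16.6, 15.3 and 17.0 FPKM in the Klotho-labelled libraries, against 21.7, 25.1 and 23.6 FPKM in the vector libraries. Its log2 fold change was -0.50 ± 0.10 (SE, limma adjusted p 0.183). Calcification medium alone gave 23.9, 23.7 and 22.9 FPKM, within the range of the vector libraries. Serum response factor drives many immediate early genes and the smooth muscle genes alike through the CArG box, so the promoter is shown with that motif in capitals (RefSeq, chr7:28379179-28379478 (-), GRCm38.p6).
Zfp36: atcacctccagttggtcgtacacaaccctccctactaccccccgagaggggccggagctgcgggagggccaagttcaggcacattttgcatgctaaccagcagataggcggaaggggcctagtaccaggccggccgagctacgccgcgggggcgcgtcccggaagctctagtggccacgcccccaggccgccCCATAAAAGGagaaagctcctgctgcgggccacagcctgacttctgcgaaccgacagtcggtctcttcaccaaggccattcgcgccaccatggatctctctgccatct
It holds 1 match on both strands, 58 bases before the start site, and 1.63% of 32851 promoters hold at least 1. Of the 15 immediate early genes with a promoter in the RefSeq table, 1 holds the motif.

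**Figure D4:**
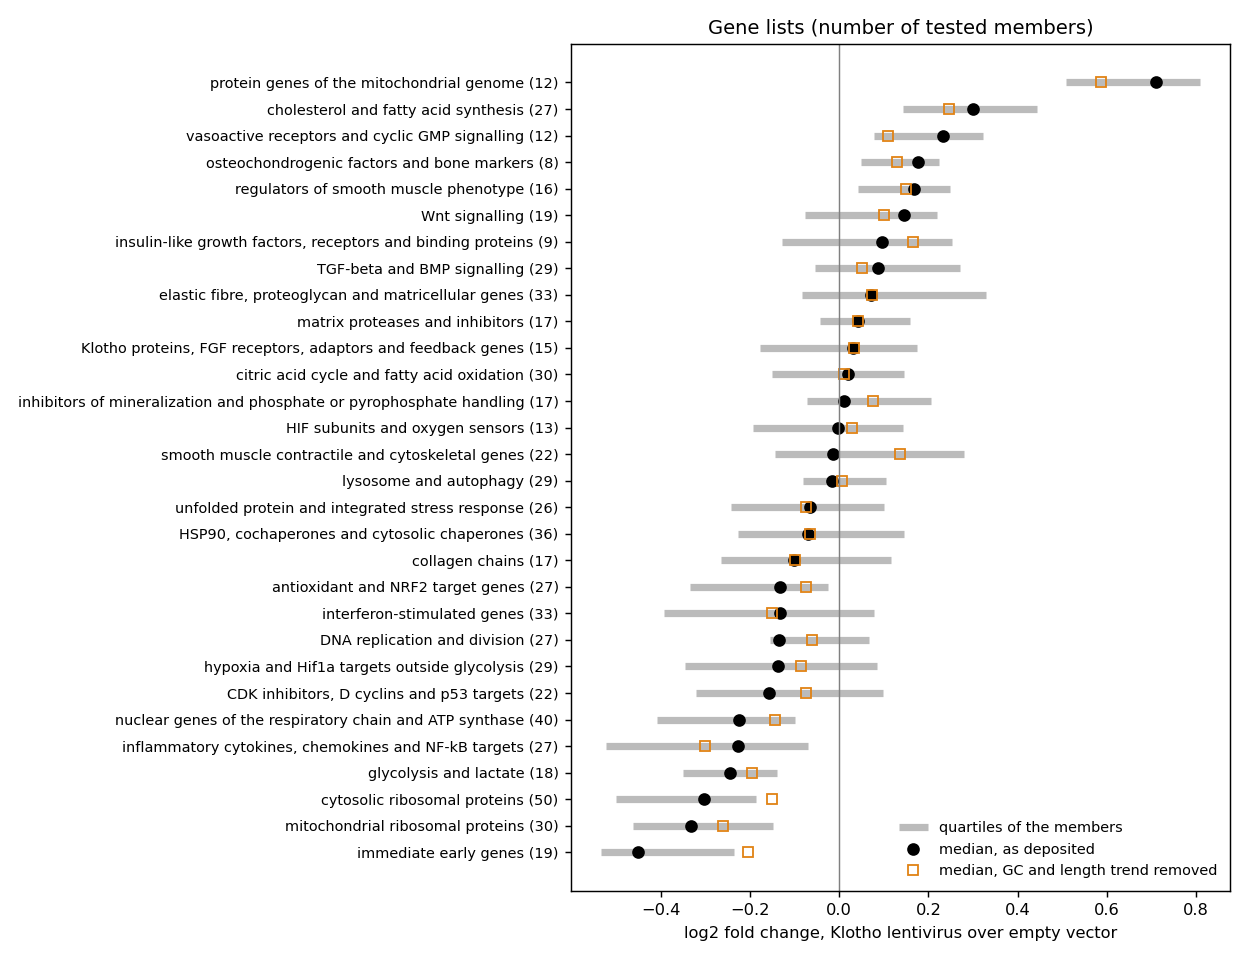
Median log2 fold change, libraries labelled Klotho over empty vector, of the lists with at least 5 tested members. The lists of markers of other cell types are left out. Grey bars are quartiles of the members, filled circles the medians as deposited and open squares those with the GC and length trend removed. The mitochondrial genome stands highest at 0.71 and 0.59. Immediate early genes are lowest as deposited at -0.45 and lie at -0.20 with the trend removed, when inflammatory genes are lowest at -0.30.

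Nuclear genes of the respiratory chain and of the mitochondrial ribosome mostly read lower in the Klotho-labelled libraries. Of 40 tested genes for nuclear-encoded subunits of the respiratory chain and ATP synthase, 35 had a negative fold change, against 51.6% of all genes, and 10 lay wholly below, against 10.5%. None lay wholly above, and the median was -0.22, or -0.15 without Klotho replicate 1. Ndufa2 of complex I measured 78.2, 99.3 and 126 FPKM in the Klotho-labelled libraries, against 191, 169 and 175 FPKM in the vector libraries. Ndufb3, also of complex I, measured 16.2, 16.3 and 20.8 FPKM in the Klotho-labelled libraries, against 29.8, 32.4 and 31.8 FPKM in the vector libraries. Cox8a, of cytochrome oxidase, lay wholly below as well, at a log2 fold change of -0.72.

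The mitochondrial ribosome translates the mitochondrial genes. Of its 30 tested genes, 28 were negative, against 51.6% of all genes, and 13 lay wholly below, against 10.5%, with a median of -0.33. Mrpl54 measured 33.1, 41.1 and 58.4 FPKM in the Klotho-labelled libraries, against 95.5, 67.8 and 65.1 FPKM in the vector libraries. Mrpl51, a longer entry of 4043 exon bases, measured 7.16, 7.77 and 8.84 FPKM in the Klotho-labelled libraries, against 10.2, 11.9 and 12.7 FPKM in the vector libraries. With the trend removed, 9 of the respiratory genes and 13 of the mitochondrial ribosomal genes lay wholly below, where 8.09% of all genes did, and the medians were -0.14 and -0.26. These lists hold short genes, with median exon lengths of 2036.5 and 2068 bases beside 4086 for all tested genes.

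Of 50 cytosolic ribosomal protein genes, all 50 read lower in the Klotho-labelled libraries. Their median was -0.30, or -0.20 without Klotho replicate 1, and 10 lay wholly below, where 10.5% of all genes did. With the trend removed the median was -0.15 and 12 were positive. Then 9 lay wholly below and 2 wholly above, where 8.09% and 6.62% of all genes did. Rpl8 measured 544, 643 and 718 FPKM in the Klotho-labelled libraries, against 1080, 947 and 799 FPKM in the vector libraries. Citric acid cycle and fatty acid oxidation genes did not lean: of 30 tested, 16 were positive, 6 lay wholly above and 2 wholly below, where 11.2% and 10.5% of all genes did, with a median of 0.02. After removal of the trend, 4 lay wholly above and 3 wholly below, where 6.62% and 8.09% of all genes did. Idh1, the cytosolic isocitrate dehydrogenase, measured 69.6, 58.1 and 57.0 FPKM in the Klotho-labelled libraries, against 49.7, 51.4 and 45.2 FPKM in the vector libraries. Etfb, which passes electrons from fatty acid oxidation on to the respiratory chain, measured 3.95, 5.24 and 5.37 FPKM in the Klotho-labelled libraries, against 10.2, 10.0 and 8.92 FPKM in the vector libraries.

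Genes of cholesterol and fatty acid synthesis mostly read higher in the Klotho-labelled libraries. Of 27 tested, 24 had a positive fold change, against 48.4% of all genes, and 6 lay wholly above, against 11.2%. None lay wholly below, and the median was 0.30. The median lay between 0.15 and 0.40 in the alternative fits listed at the end. It was 0.25 with the trend removed, when 4 lay wholly above, where 6.62% of all genes did. Scd1, which desaturates fatty acids, measured 58.9, 62.9 and 51.7 FPKM in the Klotho-labelled libraries, against 34.8, 41.3 and 41.8 FPKM in the vector libraries. Its log2 fold change was 0.55 ± 0.13 (SE, limma adjusted p 0.199). Stard4, a sterol carrier, measured 5.13, 5.00 and 5.06 FPKM in the Klotho-labelled libraries, against 2.52, 3.76 and 4.09 FPKM in the vector libraries. Sc5d, an enzyme of the late sterol pathway, lay wholly above with a log2 fold change of 0.55. Idi1, which makes the isoprenoid building block, had the largest difference of the list, 0.76 ± 0.29 (SE), but its groups overlap: 5.13, 8.63 and 6.53 FPKM in the Klotho-labelled libraries against 2.10, 5.35 and 3.61 FPKM in the vector libraries. Vector replicate 1 was the lowest of the 6 libraries for Idi1, Stard4, Sc5d and Scd1, and the list's median was 0.15 without it.

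For the hypoxia pathway, Hif1a itself measured 20.1, 11.5 and 16.2 FPKM in the Klotho-labelled libraries, against 12.4, 8.63 and 12.9 FPKM in the vector libraries. The groups overlap, and the log2 fold change was 0.45 ± 0.22 (SE, limma adjusted p 0.382), 0.19 with the trend removed. Its partner Arnt had 0.29 (limma unadjusted p 0.0452) and its relative Epas1 0.12, both overlapping. With the trend removed Arnt had 0.16 and lay wholly above, while Epas1 still overlapped. Among the oxygen sensors, Egln3, itself a known HIF target, measured 0.405, 1.72 and 1.35 FPKM in the Klotho-labelled libraries, against 2.29, 1.92 and 2.13 FPKM in the vector libraries, and Siah2, a ligase acting on the hydroxylases, also lay wholly below. As deposited, 2 of the 13 HIF subunits and sensors lay wholly below and 0 wholly above, where 10.5% and 11.2% of all genes did. After removal of the trend the groups overlap for Egln3 and Siah2. Then 0 of the 13 lie wholly below and 1, Arnt, wholly above, where 8.09% and 6.62% of all genes did. Egln1 and Vhl overlapped.

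Of 29 tested HIF targets outside glycolysis, 20 had a negative fold change, against 51.6% of all genes; 4 lay wholly below and 1 wholly above, where 10.5% and 11.2% of all genes did. The median was -0.14, or -0.23 without Klotho replicate 1, -0.09 without Klotho replicate 3 and -0.08 without vector replicate 3, and -0.09 with the trend removed. Vegfa, the endothelial growth factor, measured 4.70, 3.36 and 4.27 FPKM in the Klotho-labelled libraries, against 5.35, 4.97 and 7.73 FPKM in the vector libraries. Every Klotho-labelled library was lower, and the log2 fold change was -0.45 ± 0.18 (SE, limma adjusted p 0.308), -0.41 with the trend removed. P4ha2, a collagen prolyl hydroxylase, measured 15.8, 23.9 and 18.8 FPKM in the Klotho-labelled libraries, against 24.8, 26.5 and 26.9 FPKM in the vector libraries. Higd1a and Fam162a, both small mitochondrial proteins, were the other members wholly below. Lox, the collagen cross-linking oxidase, was the member wholly above, at 759, 902 and 834 FPKM in the Klotho-labelled libraries against 456, 677 and 724 FPKM in the vector libraries. Vegfa measured 6.82, 7.08 and 5.91 FPKM in calcification medium alone, within the range of the vector libraries, and lay between 9.21 and 13.7 FPKM in basal medium.

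All 18 tested genes of glycolysis and lactate transport had a fold change below 0, against 51.6% of all genes, although that of Slc16a1, a lactate transporter, was -8.37e-06, which is no difference. Gapdh read only 0.632, 5.04 and 1.06 FPKM in the Klotho-labelled libraries, against 4.48, 0.930 and 1.33 FPKM in the vector libraries. Its log2 fold change was -0.09 ± 0.77 (SE), so its sign is uncertain. Sequence shared with other genes was not sought for Gapdh. The median of the list was -0.24 (-0.19 with the trend removed), or -0.13 without Klotho replicate 1 and -0.16 without vector replicate 1. Eno2 alone lay wholly below, where 10.5% of all genes did. With the trend removed Eno2 overlapped and Pfkp alone lay wholly below, where 8.09% of all genes did. Ldha, lactate dehydrogenase A, measured 133, 156 and 209 FPKM in the Klotho-labelled libraries, against 246, 186 and 202 FPKM in the vector libraries. Pgk1, phosphoglycerate kinase, measured 175, 190 and 251 FPKM in the Klotho-labelled libraries, against 260, 211 and 242 FPKM in the vector libraries. Slc2a1, the glucose transporter, measured 23.5, 16.7 and 17.0 FPKM in the Klotho-labelled libraries, against 22.5, 19.4 and 27.1 FPKM in the vector libraries. In each of these the groups overlap, and for Ldha and Pgk1 vector replicate 1 was the highest library. The median was -0.07 between replicates 2 and 3 alone.

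Of the HSP90 pair, Hsp90aa1, the stress-inducible form named in the study's title, measured 89.9, 112 and 108 FPKM in the Klotho-labelled libraries, against 88.1, 83.8 and 66.4 FPKM in the vector libraries. The lowest Klotho-labelled library lay just above the highest vector library, and the log2 fold change was 0.38 ± 0.24 (SE, limma adjusted p 0.473). They overlap once the trend is removed. Hsp90ab1, the constitutive form, measured 509, 491 and 519 FPKM in the Klotho-labelled libraries, against 620, 499 and 514 FPKM in the vector libraries. Calcification medium alone gave 67.6, 112 and 120 FPKM for Hsp90aa1, a spread as wide as all 6 compared libraries.

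Across 36 chaperones and cochaperones there was no lean as deposited, with 16 positive, 20 negative and a median of -0.07. Of the 36, 5 lay wholly above and 5 wholly below, where 11.2% and 10.5% of all genes did. Cdc37, which hands kinases to HSP90, measured 24.6, 29.6 and 36.8 FPKM in the Klotho-labelled libraries, against 52.9, 40.8 and 39.0 FPKM in the vector libraries. Ahsa1, which activates the HSP90 ATPase, measured 13.7, 15.2 and 17.8 FPKM in the Klotho-labelled libraries, against 20.9, 20.3 and 21.4 FPKM in the vector libraries. Fkbp4, an immunophilin of the HSP90 complex, also lay wholly below, at a log2 fold change of -0.52. Stub1 and Hspa1b were the other members below, and Hspa4, Chordc1, Dnaja2, Hspd1 and Hsp90aa1 the members above. With the trend removed, 13 members were positive and 23 negative. Then 4 lay wholly below and 0 wholly above, where 8.09% and 6.62% of all genes did. Of 26 tested genes of the unfolded protein and integrated stress response, 11 were positive and 15 negative, with a median of -0.07. As deposited, 1 lay wholly above and 4 wholly below, where 11.2% and 10.5% of all genes did. Dnajb9 lay wholly above, and Ddit3, Atf4, Sdf2l1 and Creld2 lay wholly below with log2 fold changes between -0.52 and -0.38. With the trend removed, 0 of the 26 lay wholly above and 2 wholly below, where 6.62% and 8.09% of all genes did. After removal of the trend the groups overlap for Atf4, Sdf2l1, Creld2 and Dnajb9, and stay apart for Ddit3.

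Most markers of calcification and of the smooth muscle phenotype did not separate the labels. Of 8 tested osteochondrogenic factors, which mark the shift of smooth muscle towards bone-like cells, 1 stood apart, where 21.7% of all genes did. This was Sox9, the cartilage regulator, at 12.2, 12.3 and 14.2 FPKM in the Klotho-labelled libraries, against 10.3, 9.56 and 11.7 FPKM in the vector libraries. Its log2 fold change was 0.28 ± 0.16 (SE, limma adjusted p 0.446), and with the trend removed it was 0.28 and still wholly above. Runx2, the bone master regulator, measured 1.93, 1.48 and 0.611 FPKM in the Klotho-labelled libraries, against 0.839, 1.14 and 1.04 FPKM in the vector libraries. Spp1, osteopontin, and Msx2 overlapped. Mgp, an inhibitor of mineralization, measured 1605, 918 and 999 FPKM in the Klotho-labelled libraries, against 1400, 1192 and 1059 FPKM in the vector libraries. Xpr1, a phosphate exporter, was the 1 gene of 17 for mineralization and phosphate handling that lay wholly above, where 11.2% of all genes did. Its log2 fold change was 0.48, or 0.12 with the trend removed. With the trend removed, 3 of the 17 lay wholly above, where 6.62% of all genes did: Xpr1, Ank at 0.38 and Vkorc1 at 0.26. As deposited, Ank overlapped, at a log2 fold change of 0.31 (limma unadjusted p 0.0455).

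The contractile genes varied more between replicate numbers than between labels. Acta2, smooth muscle actin, measured 138, 696 and 1081 FPKM in the Klotho-labelled libraries, against 245, 625 and 744 FPKM in the vector libraries. Myh11, smooth muscle myosin, measured 1.87, 23.0 and 29.6 FPKM in the Klotho-labelled libraries, against 1.32, 12.2 and 31.0 FPKM in the vector libraries. Cnn1, calponin, measured 2.26, 22.1 and 46.0 FPKM in the Klotho-labelled libraries, against 3.95, 19.2 and 38.4 FPKM in the vector libraries. In both groups the library numbered 1 was the lowest for all 3 genes, and so it was in calcification medium alone and in basal medium. Their standard errors were accordingly large: the log2 fold change was -0.05 ± 0.91 for Acta2, 0.37 ± 1.31 for Myh11 and -0.05 ± 1.22 for Cnn1. Tagln, the actin-binding SM22α and usually abundant in these cells, was low in every library, between 1.34 and 6.26 FPKM in the Klotho-labelled libraries and between 1.56 and 5.20 FPKM in the vector libraries. Of 22 contractile genes tested, 11 were positive and 11 negative, and the median of -0.01 turned to 0.14 with the trend removed and lay between -0.30 without Klotho replicate 3 and 0.48 without Klotho replicate 1.

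**Figure D5:**
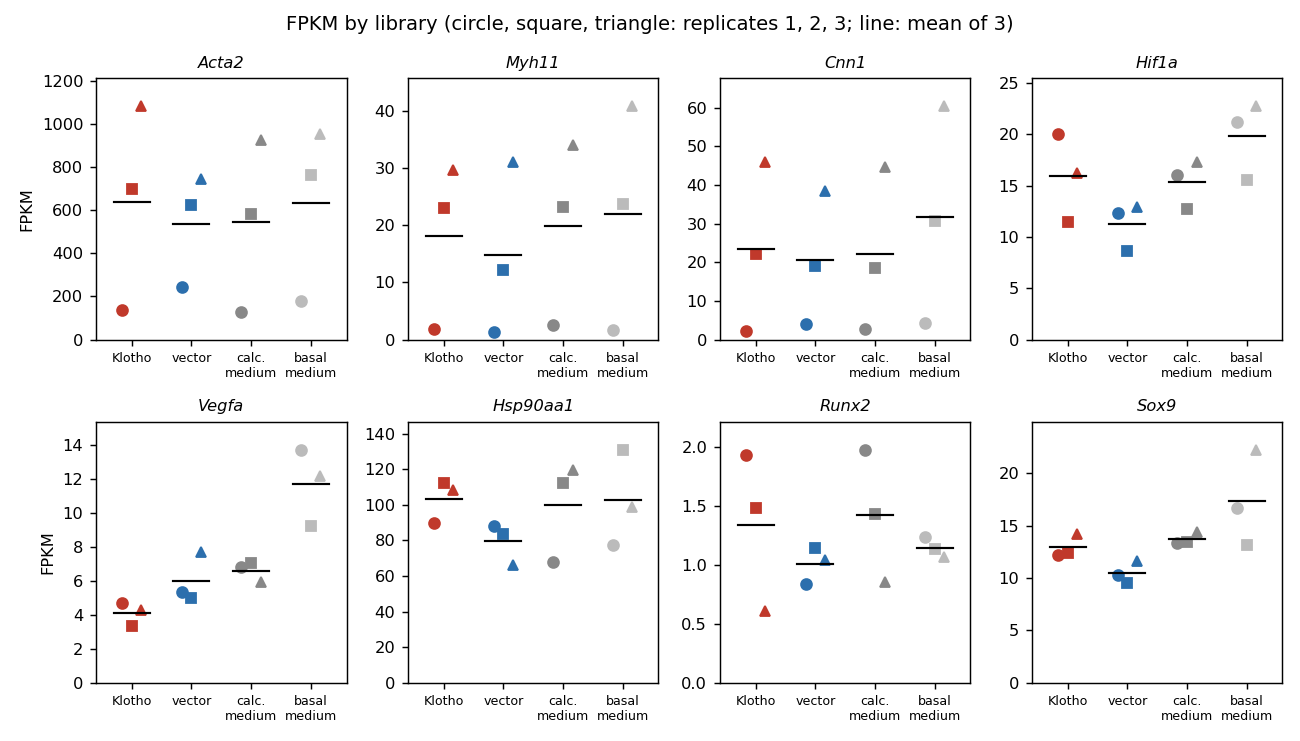
FPKM of 8 genes of the study's question in every library; circle, square and triangle are replicates 1, 2 and 3, the line is the mean of 3, and the groups from left to right are Klotho-labelled, vector, calcification medium alone and basal medium. Acta2, Myh11 and Cnn1 are lowest in replicate 1 of each group, while Vegfa lies at 3.36 to 4.70 FPKM in the Klotho-labelled libraries and 4.97 to 7.73 FPKM in the vector libraries.

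FGF receptor signalling, the known route of membrane αKlotho, showed no lean among 15 tested genes, with 8 positive and a median of 0.03. Fgfr1, the receptor with which αKlotho pairs, measured 65.7, 26.0 and 32.0 FPKM in the Klotho-labelled libraries, against 56.8, 29.7 and 40.5 FPKM in the vector libraries. Egr1, described above, was the 1 member whose groups stood apart, where 21.7% of all genes did. The other members tested, receptors, ligands and feedback genes, had log2 fold changes between -0.32 for Dusp5 and 0.42 for Fgf2, all with overlapping groups. In TGF-beta and BMP signalling 19 of 29 genes were positive, against 48.4% of all genes, and the median of 0.09 was -0.09 without vector replicate 1 and 0.27 without vector replicate 3. The BMP receptor Bmpr1a measured 12.5, 11.1 and 7.68 FPKM in the Klotho-labelled libraries, against 5.57, 6.90 and 5.91 FPKM in the vector libraries, and these overlap with the trend removed.

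The medians of inflammatory and interferon genes depended on single libraries, Klotho replicate 2 among them. Cxcl1, a neutrophil chemokine, was listed at 7.35, 0 and 8.37 FPKM in the Klotho-labelled libraries, against 10.3, 21.4 and 15.5 FPKM in the vector libraries. Ccl2, a monocyte chemokine, measured 51.4, 6.03 and 50.7 FPKM in the Klotho-labelled libraries, against 51.6, 91.6 and 89.5 FPKM in the vector libraries. Klotho replicate 2 was the lowest library for both. Of 27 tested inflammatory genes, 21 were negative, against 51.6% of all genes, with a median of -0.23. This median was -0.01 without Klotho replicate 2 and -0.30 with the trend removed. Leaving out each library gave -0.43 to -0.01. Of 33 interferon-stimulated genes, 23 were negative, against 51.6% of all genes, with a median of -0.13. This median was 0.37 without Klotho replicate 2 and 0.02 without vector replicate 1 or vector replicate 3. Leaving out each library gave -0.41 to 0.37. Macrophage markers overlapped: 9 of the 10 that passed the filter were negative, and the sum over the 18 listed was 47.0 to 122 FPKM in the Klotho-labelled libraries, against 50.8 to 153 FPKM in the vector libraries. None of the 18 was at 0 in all 6 libraries, but Ptprc, the pan-leukocyte marker CD45, was at most 0.0155 FPKM. Endothelial markers summed to 3.03 to 9.99 FPKM in the Klotho-labelled libraries, against 3.00 to 12.6 FPKM in the vector libraries. In such bulk cultures, fewer cells of a type and less RNA per cell cannot be told apart, and the part of either cell type in the differences was not tested.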

How the data were processed

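The deposited values carry no unit in their header, and from the values themselves they are FPKM: once multiplied by GENCODE M21 exon length, 97.8% to 98.3% of entries below 100 fragments were whole numbers within 0.05, where an even spread gives 10%. The 12 libraries held 16636000 to 20015000 fragments. The submitters' processing notes name CASAVA 1.8.2, STAR 2.4 and DESeq2 3.12, with no role, and both GRCm38 and GRCm39; the counting tool, annotation and strand handling: not given in the sources used here. RefSeq sequences have GRCm38.p6 coordinates, and other coordinates are as the table gives them.

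All 12 libraries, with 1 coefficient per group, entered limma 3.58.1 in R 4.3.3, fitted to log2(FPKM + 1) with its mean-variance trend. Genes needed a mean of 1 FPKM or more over the 6 libraries compared. Benjamini-Hochberg adjusted p under 0.05 was a call. Fold changes understate the change of low genes. Exon length and GC content of the longest transcript were found for 99.2% of genes, and their trend was removed by fitting each library's deviation from the mean with natural splines (5 degrees of freedom each). Near-identical copies of the genes with the largest differences were sought with blastn 2.17.0. The fits were also run on simulated fragments, drawn with no differences shared by a replicate number. That run cannot tell how the fits behave on libraries whose replicates differ as they do here.

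The members and the 38 gene lists were chosen with earlier results of these data known. The genes named are 18 genes of the study's question, the 10 largest positive and 10 largest negative differences with groups apart, an unadjusted p under 0.05 and at least 5 FPKM in the higher group, up to 3 members of a list with the smallest unadjusted p under 0.05, and the mitochondrial genes. Other list members were named after their values were seen. Some results are not reported here.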

Additional observations from a re-analysis of the deposited data

How the results depend on the processing

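No gene was called with only the 6 libraries, with the trend removed, with a pseudocount of 0.1, with a mean of at least 5 FPKM, with equal median ratios, with limma-voom on fragments recovered from FPKM (1575 genes at an unadjusted p under 0.05), with replicates 2 and 3 only, or leaving out any 1 library. Without a filter on low values 2 genes were called, Gja6 and ENSMUSG00000119776. With the replicate number as a block, 11 were called (8 higher, 3 lower, Ier2, Tmem106b, Crebrf, Cped1 and Gm10925 among them, at an adjusted p of 0.0467), 1 with the block and only the 6 libraries (mmu-mir-692-2, 0.0198), and 0 with the block and the trend removed; the cause was not tested. The values of mmu-mir-692-2, a short gene, rest on few fragments. Same-numbered libraries deviated from their group means with correlations of 0.30, 0.52 and 0.0064. Replicates 1 and 2 crossed between the groups gave -0.40 and -0.39, and Klotho replicate 3 gave 0.030 with vector replicate 1. The labels do not say what the replicate numbers mark, so the main fit took no pairs and the block is an alternative. In the main fit, differences shared by a replicate number stay in the spread. The count at an unadjusted p under 0.05 was 831 with the trend removed, 933 at a mean of at least 5 FPKM, where fewer genes are tested, 990 with replicates 2 and 3 only, and 923 to 1857 leaving out each library. Genes with groups apart numbered 1398 at a mean of at least 5 FPKM, 4494 with replicates 2 and 3 only and 2843 to 4181 leaving out each library, where fewer libraries must stand apart. The rank correlation of the fold change with GC content was -0.38 without the filter, -0.37 with replicates 2 and 3 only, and -0.56 to -0.44 leaving out each library.

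Of 95 named genes, 85 kept their sign in every alternative. With the trend removed, with or without the block, Mgp turned to 0.058, Acta2 to 0.054, Cnn1 to 0.060 and mt-Co2 to -0.0031. With replicates 2 and 3 only, Runx2 turned to -0.063, Spp1 to -0.045, Acta2 to 0.35 and Cnn1 to 0.23. Leaving out each library gave ranges of -0.49 to 0.16 for Fgfr1, -0.0019 to 0.43 for Runx2, -0.30 to 0.087 for Msx2, -0.10 to 0.55 for Spp1, -0.34 to 0.067 for Mgp, -0.64 to 0.84 for Acta2, -0.68 to 1.45 for Myh11, -0.40 to 0.52 for Tagln, -0.89 to 1.06 for Cnn1 and -0.15 to 0.22 for mt-Co2. The median kept its sign everywhere for 15 of 33 lists with at least 5 tested members. Depth was similar in all 12 libraries; the number of libraries and the spread between replicates limit what could be detected.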
